A study of Mus musculus with 27 samples.

Results

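The iron handling genes described here are Hamp, Hamp2, Bmp6, Hfe, Tfr2, Tfrc, Trf, Slc11a2, Slc40a1 and Fth1. They were found by symbol in the annotation of an Illumina mouse BeadChip, which gave 17 probes of 10 genes out of 45281 probes and 19057 named genes. A probe was kept in a tissue where its detection p was under 0.05 on all 3 arrays of at least 1 diet group. By this rule 15 of the 17 probes were kept in the liver (of 17518 kept probes in all), 13 in epididymal white adipose tissue (WAT; of 19455) and 11 in gastrocnemius muscle (of 16332). In all, 16 of the 17 were kept in at least 1 tissue and 10 in all 3. Where a gene has several probes, they are numbered by mean signal over the 27 arrays, brightest first.

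The arrays came from male C57BL/6J mice (spelled C56BL/6J in the strain field), which arrived at 4 weeks of age, were acclimated for 1 week and then ate 1 of 3 diets for 16 weeks. These were a normal diet (ND), a high-fat diet with 20% fat and 1% cholesterol (HFD), and that same HFD with 0.05% (w/w) of ursolic acid, a plant triterpenoid (UR), so that the UR mice carried the fat and cholesterol load as well. The labels give 10 mice per diet, while the methods of the study give larger groups for the HFD and UR. RNA was pooled into 3 sets for each diet and tissue, so that every n is 3 pools and the errors measure the spread between pools, which may be technical, and not between mice. In such bulk samples, fewer cells of a type and less RNA per cell cannot be told apart.

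Iron travels in the blood bound to transferrin, the product of Trf, and enters cells through transferrin receptor 1, the product of Tfrc. Inside the cell the divalent metal transporter encoded by Slc11a2 carries it out of the endosome, ferritin, whose heavy chain is encoded by Fth1, stores it, and ferroportin, the product of Slc40a1, exports it. Hepcidin, the product of Hamp, is a liver hormone that binds ferroportin and sends it to degradation, and its transcription answers to BMP6, to HFE and transferrin receptor 2 on the hepatocyte, and to inflammation through STAT3. Hamp2 is a paralog of Hamp that mice carry and humans lack.

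Each tissue showed the markers of its label: 7 of 8 hepatocyte markers on the array were kept in the liver, 7 of 7 adipocyte markers in WAT and 8 of 8 fibre markers in muscle. Of the markers of the other tissues, WAT also kept 5 of the fibres, among them Acta1, and muscle 4 of the adipocytes, among them Adipoq. Of the hepatocyte markers each of them kept 2, Cyp2e1 and Ass1, and did not keep the other 6 on the array, among them Alb, Apoa1 and Ttr. Arrays detected between 34.2% and 44.4% of their probes. In the liver the share differed by diet, from 34.2% to 35% (ND) over 36.5% to 37.2% (HFD) up to 38.7% to 40% (UR), so that detection and diet cannot be told apart there. The total signal of a liver array was also higher with UR than with either other diet.

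By signal, Hamp, Hamp2, Tfr2 and Trf were far higher in the liver than in muscle, and of these Trf alone was also bright in WAT. With the ND, 14 of 16 member probes differed between liver and WAT (79.6% of all 22136 probes did), 15 between liver and muscle (79.1% of all probes) and 10 between WAT and muscle (77.1% of all probes), by limma over signals quantile-normalized across the 27 arrays. These counts take every probe kept in at least 1 tissue. Hamp, Hamp2 and Slc11a2 probe 3 were kept in the liver alone, Tfr2 not in muscle and Bmp6 not in the liver. Set against a tissue that did not keep it, such a probe entered only through tissues where it was high. Those calls are therefore not taken as support for a tissue difference. The signal of Hamp was 11016 to 18826 in the liver and 135 to 148 in WAT and muscle, where it was detected on 0 of 6 arrays. That made it at least 82.1-fold higher in the liver than in WAT and at least 73.1-fold higher than in muscle. These bounds set the liver mean against the higher of the undetected probe's own signal and the lowest signal of a detected probe on each array. Hamp2 read 6505 to 10768 in the liver, at least 48.6-fold above WAT, and 208 to 213 in muscle, where 2 of 3 ND arrays detected it.

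Tfr2, whose protein senses iron-loaded transferrin on hepatocytes, had a liver signal of 7596 to 8434 on probe 1, against 231 to 300 for WAT and 152 to 160 for muscle. The liver exceeded WAT by 4.87 on the log2 scale (standard error 0.08; limma adjusted p = 8.49e-29), and was at least 38.8-fold higher than muscle, where the probe was not detected. Trf stood at 66029 to 67814 in the liver and 47268 to 56637 in WAT against 441 to 497 in muscle, a log2 difference of 7.15 between liver and muscle (standard error 0.08). Trf and Fth1 lay close to the ceiling of the array. The Trf signal was 97.4% to 100% of the brightest probe on every liver array, and that of Fth1 probe 1 was 92.4% to 97.8% there and 93.5% to 100% in WAT. Differences of these probes can therefore be understated.

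Tfrc was not highest in the liver. Both of its probes were highest in muscle, lower in the liver and lowest in WAT, with probe 1 at 1734 to 2953 (muscle), 954 to 1431 (liver) and 523 to 663 (WAT), and each neighbouring step was about 1 on the log2 scale (0.98 and 1.01, standard error 0.16). Slc40a1 probe 1 was higher in the liver (13311 to 16450) than in WAT (2476 to 2782) by 2.51 and than in muscle (3207 to 3433) by 2.19 on the log2 scale; the smaller difference of -0.32 between WAT and muscle became 0.13 when arrays were scaled to a common median instead. Hfe, a class I-like molecule that associates with the transferrin receptors, was higher in WAT than in the liver on probe 1 by 0.77 (standard error 0.10), while on probe 2 the difference of liver from WAT was 0.15 (adjusted p = 0.0820 from limma), and -0.32 with median scaling. Bmp6, which liver endothelial cells are known to make, was not detected on any liver array of any diet. Slc11a2 probes disagreed: probe 1 was higher in the liver than in WAT by 1.92, whereas for probe 2 the difference was -0.27 (adjusted p = 0.00307), or -0.15 without liver ND replicate 1 (adjusted p = 0.0656). Transcripts of this gene are known to end in different ways, and which of them each probe reads was not analysed here. For Fth1 probe 1 the difference of liver from WAT was -0.07 (adjusted p = 0.0569), and 0.37 with median scaling.

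**Figure D1:**
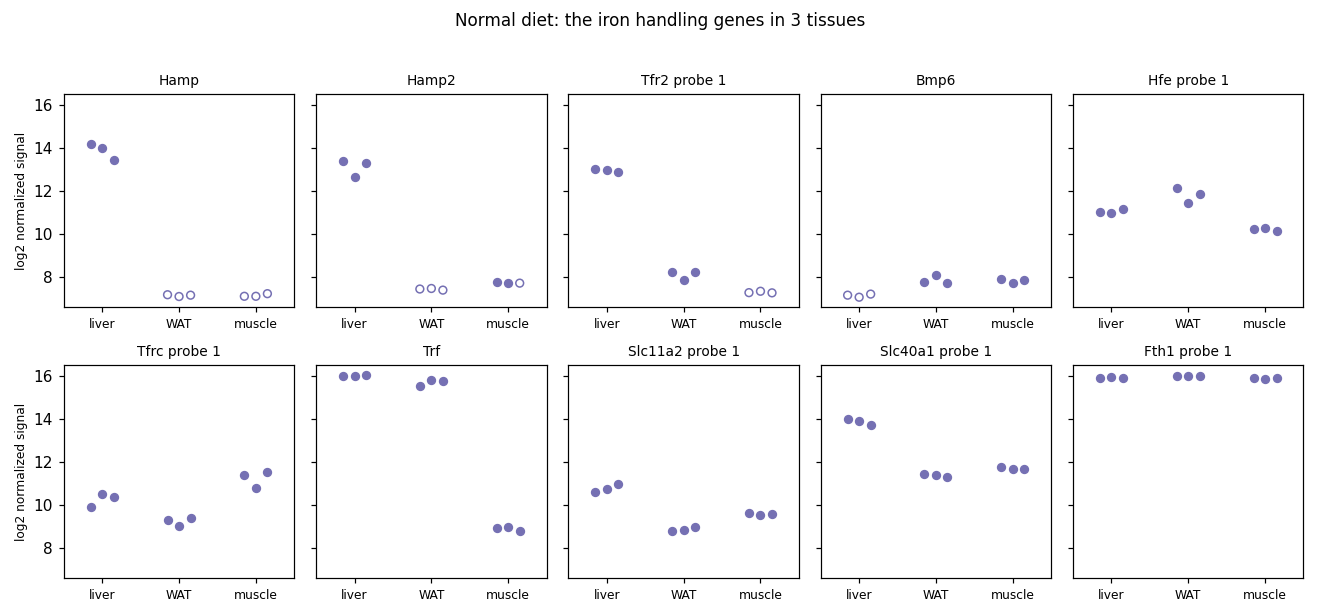
Each panel shows 1 probe in ND mice; the vertical axis is the log2 signal after quantile normalization over 27 arrays, and each point is 1 of 3 arrays of liver, WAT or muscle, filled where the probe was detected and open where it was not. Hamp read 11016 to 18826 in the liver and was not detected elsewhere, while Tfrc probe 1 was highest in muscle at 1734 to 2953.

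Hamp and Hamp2 lie near each other on chromosome 7 of GRCm38.p6, at chr7:30942368-30944029 and chr7:30922372-30924181, both on the minus strand. The 250 bases before the annotated start of each gene are shown because hepcidin, made from Hamp, is the hormone of the pathway and Hamp2 is the member next to it on the chromosome. They come from RefSeq (GRCm38.p6), which gave a promoter window for 7 of the 10 genes, and run 5′ to 3′ on the gene's strand, with GGCGCC, the core of the element through which BMP signals act on hepcidin, and TTCNNNGAA, the spacing bound by STAT proteins, in capitals.
Hamp, chr7:30944030-30944279: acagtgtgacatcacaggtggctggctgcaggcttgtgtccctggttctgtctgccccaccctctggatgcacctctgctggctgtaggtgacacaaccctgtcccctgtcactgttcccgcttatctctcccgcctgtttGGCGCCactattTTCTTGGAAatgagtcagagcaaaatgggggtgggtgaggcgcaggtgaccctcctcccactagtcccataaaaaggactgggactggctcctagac
Hamp2, chr7:30924182-30924431: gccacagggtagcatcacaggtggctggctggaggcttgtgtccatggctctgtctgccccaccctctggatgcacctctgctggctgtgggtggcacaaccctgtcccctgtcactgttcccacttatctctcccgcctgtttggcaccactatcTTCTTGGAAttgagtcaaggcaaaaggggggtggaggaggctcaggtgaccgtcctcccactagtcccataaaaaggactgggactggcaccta
An alignment of the windows paired 247 bases, of which 227 (91.9%) were identical and 20 were substitutions. Of those, G145A falls inside the GGCGCC of Hamp (the Hamp base first, positions counted from 1 at the 5′ end of the printed Hamp window), so that GGCGCC occurs in the window of Hamp, starting at -109 from the annotated start, and not in that of Hamp2. TTCNNNGAA occurs in both, starting at -97 in Hamp and at -94 in Hamp2. Both strands were searched, and of 32851 promoter windows of this length 9.59% hold GGCGCC and 7.02% hold TTCNNNGAA. Among the other members, GGCGCC was found before 1 of the 2 annotated starts of Tfrc. A match is a description of the letters and says nothing of use in these livers.

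In the liver, hepcidin mRNA itself did not pass the test with either diet, while Hamp2 fell with the HFD and fell further with UR. The normalized signal of Hamp was 22100, 19298 and 12605 with the ND, 17254, 15422 and 16549 with the HFD, and 20916, 13059 and 23155 with UR. The ND and UR arrays spread on either side of the HFD arrays, so the diets overlapped fully. On the log2 scale Hamp differed by -0.10 with the HFD against the ND (standard error 0.20, 95% interval -0.53 to 0.34, adjusted p = 0.770) and 0.17 with UR against the HFD (interval -0.26 to 0.61, adjusted p = 0.487). With 3 pools, changes of a size within those intervals are not excluded.

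Hamp2 read 12243, 6870 and 11454 with the ND, 5298, 8125 and 5666 with the HFD, and 4318, 5063 and 3797 with UR. All UR arrays lay below all others, while HFD replicate 2 lay above ND replicate 2. Hamp2 fell by 0.66 on the log2 scale with the HFD (standard error 0.20, adjusted p = 0.0279) and by 0.52 with UR against the HFD (adjusted p = 0.0411), and UR stood 1.18 below the ND (log2 fold change -1.18, adjusted p = 0.000208, a 2.26-fold decrease). Both single steps were fragile: the HFD call was lost without ND replicate 1 (adjusted p = 0.103), ND replicate 3 (0.0946), HFD replicate 1 (0.105) or HFD replicate 3 (0.0915), and the UR call without HFD replicate 2 (0.186), UR replicate 1 (0.0854) or UR replicate 3 (0.140), with median scaling (-0.23, adjusted p = 0.368) and with the replicate number as a block (adjusted p = 0.0602). UR against the ND kept its call under every alternative run, at -1.43 to -0.94. Whether the Hamp2 signal moved differently from the Hamp signal was asked of their ratio within each array, a test chosen after the values were seen. The log2 ratio of Hamp2 to Hamp was -0.83 ± 0.68 (SD, n = 3 pools) with the ND, -1.39 ± 0.41 with the HFD and -2.08 ± 0.64 with UR. Its difference of -1.26 between UR and ND had p = 0.20 (exact permutation test, two-sided, smallest possible p = 0.10), and since 3 pools against 3 cannot reach 0.05, this test could not show a difference or its absence. The coding sequences of the paralogs are alike, and whether each probe also reads the other transcript was not analysed here.

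Of the regulators of hepcidin among the members, Tfr2 fell in the liver with the HFD and again, on 1 of its probes, with UR, and Hfe probes disagreed. For the HFD against the ND, 0 of 15 member probes rose and 3 fell, against 24.9% of all kept probes called in either direction (13.3% higher and 11.6% lower). For UR against the HFD, 1 rose and 4 fell, against 55.1% of all kept probes called (21.9% higher and 33.3% lower). UR against the ND, which shares its arrays with both, gave 1 up and 5 down against 60.1% called (25% higher and 35.1% lower). The arrays of the diets compared did not overlap for 5, 9 and 7 of the 15 probes in these 3 comparisons, against 39.6%, 64.2% and 65.1% of all kept probes. With median scaling the member counts were 1 up and 3 down (HFD against ND), 2 up and 2 down (UR against HFD) and 5 up and 4 down (UR against ND), so the balance of directions with UR depends on the scaling. The 3 that fell with the HFD were both probes of Tfr2 and the probe of Hamp2, and only 1 fell without ND replicate 1. They were a larger share than the 11.6% of all probes that were lower. With 0 rises, though, the 3 calls were a smaller share than the 24.9% called in either direction. The other counts of calls and of probes without overlap were at or below their background shares. The members' median log2 change was 0.03 with the HFD and -0.04 with UR, against -0.01 and -0.07 over all kept probes. Rank products, the test that the study's methods name, called only Hamp2 with the HFD and only Tfr2 probe 2 with UR against the HFD.

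Tfr2 fell on both probes. Probe 1 read 9292, 8729 and 8176 with the ND, 7426, 6854 and 7676 with the HFD, and 6791, 6091 and 6652 with UR, and the 3 diets did not overlap. Its log2 fold change was -0.25 with the HFD (standard error 0.07, adjusted p = 0.0171), and the call was lost without ND replicate 1 (adjusted p = 0.0628) or HFD replicate 2 (0.0791). With UR against the HFD it was -0.17 (adjusted p = 0.0541), and 0.10 with median scaling. Several other alternatives called it lower, among them array weights (adjusted p = 0.0155), 2 groups in the fit (0.0486) and leaving out HFD replicate 2 (0.0337). Probe 2 read 1426, 1617 and 1299 with the ND, 1168, 1124 and 1127 with the HFD, and 669, 658 and 727 with UR, again with no overlap of the 3 diets. It fell by 0.34 with the HFD (adjusted p = 0.00802) and by 0.74 with UR (standard error 0.08, adjusted p = 6.15e-06), and UR stood at a log2 fold change of -1.07 from the ND, a 2.11-fold decrease. The UR call on probe 2 was kept in every alternative run, at -0.87 to -0.48, but the probes differed in size by 0.57 on the log2 scale, where the median difference between the 2 brightest probes of a gene was 0.22 with UR and 0.08 with the HFD over 3566 genes.

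Hfe showed the same kind of disagreement. Probe 2 read 666, 700 and 636 with the ND, 689, 671 and 652 with the HFD and 480, 537 and 511 with UR, below every array of the other diets. It fell by 0.40 on the log2 scale with UR against the HFD (adjusted p = 0.000262), and by 0.18 under median scaling, which lost the call (adjusted p = 0.0866). On the brighter probe 1 the UR arrays, at 2185, 2178 and 2238, lay instead above the HFD arrays, at 2035, 1835 and 2072. There the log2 fold change was 0.15 (adjusted p = 0.0762). It became 0.44 under median scaling (adjusted p = 0.000631), so no direction for Hfe as a gene can be given. Over all genes with several probes that were called in the liver with UR, 19.5% had probes that were called both up and down, against 1.04% with the HFD. Among the 4 member genes called with UR, 0 had such a pair.

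**Figure D2:**
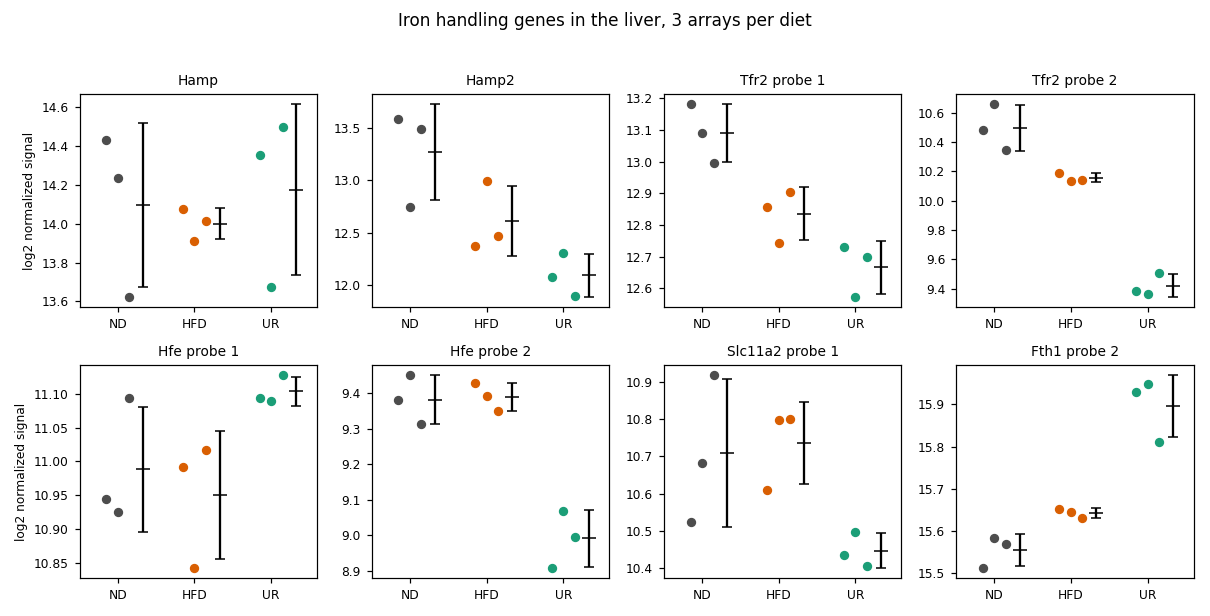
Panels show log2 normalized signals of 8 member probes in the liver; points are the 3 arrays of each diet, and the black marks give mean and SD. Tfr2 probe 2 separates the diets, with UR at 658 to 727 on the linear scale and the ND at 1299 to 1617, whereas the Hamp arrays of the 3 diets overlap.

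Among the uptake, transport and storage genes in the liver, no probe passed the test with the HFD, and with UR against the HFD Slc11a2 probe 1 fell and Fth1 probe 2 rose. Both probes of Tfrc overlapped between diets: probe 1 read 874, 1347 and 1223 with the ND, 1277, 1079 and 1527 with the HFD, and 1439, 1384 and 1034 with UR, and on the log2 scale it differed by 0.18 with the HFD (standard error 0.17, adjusted p = 0.457) and by -0.01 with UR (adjusted p = 0.964). For Trf the differences were -0.01 and 0.02 (adjusted p = 0.867 and 0.705), but its probe was at the top of the array, where a change may not be measured. Slc40a1 probe 1, the only probe of ferroportin detected, read 19203, 18147 and 15470 with the ND, 20284, 18263 and 20115 with the HFD, and 17241, 17603 and 17113 with UR. The UR arrays lay below the HFD arrays and within the span of the ND arrays. Its log2 fold change of -0.17 with UR against the HFD missed the threshold (adjusted p = 0.0640), and was 0.06 with median scaling. Other alternatives called it lower, namely array weights (adjusted p = 0.0291) and 2 groups in the fit (0.0209). So did leaving out ND replicate 1 (0.0463), ND replicate 3 (0.0203) or HFD replicate 2 (0.0391).

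Slc11a2 probe 1 read 1474, 1642 and 1935 with the ND, 1563, 1779 and 1782 with the HFD, and 1386, 1447 and 1358 with UR, all UR arrays lying lowest. It fell by 0.29 on the log2 scale with UR against the HFD (adjusted p = 0.0178), but by 0.01 with median scaling (adjusted p = 0.915), and the call was lost without HFD replicate 2 (0.0634), HFD replicate 3 (0.0623) or UR replicate 3 (0.0555). For probes 2 and 3 the log2 fold change was -0.18 (adjusted p = 0.112) and -0.03 (adjusted p = 0.712). Fth1 probe 2 read 46701, 49064 and 48618 with the ND, 51505, 51226 and 50690 with the HFD, and 62416, 63205 and 57522 with UR. The diets did not overlap, and it rose by 0.25 with UR against the HFD (standard error 0.05, adjusted p = 0.000737). On probe 1, nearer the ceiling, the log2 fold change was 0.00 (adjusted p = 0.948), or -0.13 under median scaling (adjusted p = 0.0500).

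Other genes of the pathway in the liver were followed in fixed lists, with the brightest kept probe standing for a gene. Further probes of these genes were not followed. With UR against the HFD, 19.5% of the called genes with several probes had probes called both up and down. A rise or fall of a list gene is therefore that of its brightest probe. Over all 9784 genes so represented, 27.5% were called with the HFD (16.3% higher and 11.2% lower) and 54.8% with UR against the HFD (19.3% higher and 35.5% lower), and the list counts are read against these shares. The lists were not run with median scaling. Over all kept liver probes, that scaling turned 3828 up and 5829 down with UR against the HFD into 6166 and 2189. The directions of list genes with UR may therefore depend on the scaling. Of 9 genes of iron sensing, storage and release, 3 rose and 0 fell with the HFD, and 4 rose and 3 fell with UR against the HFD (median log2 change -0.03, against -0.09 over all genes). Ftl1, the ferritin light chain, rose by 0.36 with the HFD and by 1.21 with UR (standard error 0.07, adjusted p = 1.02e-08), and Aco1 and Ireb2, which encode the iron regulatory proteins, rose by 1.48 and 0.55 with UR. Ncoa4, the receptor that delivers ferritin to lysosomes, fell by 0.53. Of 15 genes of hepcidin regulation, 3 rose and 5 fell with UR (median -0.01), close to the share of all genes called. Smad1, a transducer of BMP signals, rose by 0.91, whereas Tmprss6, a protease that damps hepcidin, fell by 0.48 and Bmpr1a, a BMP receptor, by 0.52.

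Among 14 genes of other iron transport and reduction, 5 rose and 2 fell with the HFD, and 1 rose and 7 fell with UR (median -0.19). Lcn2, which binds iron-laden siderophores, rose by 3.30 and then fell by 1.32, and Slc39a8, a metal importer, fell by 0.39 with UR. Of 7 haem synthesis genes, 3 rose and 1 fell with UR, among them Alas1, the first enzyme of the pathway, which rose by 0.63 (adjusted p = 0.00105). Of 12 acute-phase genes, 6 rose and 1 fell with the HFD and 2 rose and 6 fell with UR, with Orm2 at 2.09 and -0.65 and Saa1 at 2.39 with the HFD. Haem scavenging and breakdown gave 3 up and 1 down of 8 with the HFD and 2 up and 3 down with UR, and iron-sulfur cluster assembly 4 up and 0 down of 12, then 2 up and 2 down.

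Markers of other liver cells moved with the diets. Of 10 macrophage markers 9 rose with the HFD, and with UR 3 rose and 6 fell, Lyz2 by 1.48 while Mpeg1 rose by 1.40. Across the list the summed signal was 14549 to 16323 for ND arrays, 20200 to 23026 for HFD arrays and 13695 to 14729 for UR arrays. For 11 endothelial markers it was 21624 to 23571, 27160 to 28603 and 21747 to 22022, with 7 up and 0 down, then 1 up and 9 down. Hepatocyte markers gave 0 up and 2 down of 7, then 2 up and 4 down (summed signal 274655 to 281725, 262909 to 274931 and 257609 to 266559). The part of these cells in the values of Tfr2, Hfe, Slc40a1 and Fth1 was not tested.

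In WAT the main change was in Tfr2, and it came with the HFD. Its probe 1 read 414, 303 and 410 with the ND, 1479, 1433 and 1271 with the HFD, and 1166, 1185 and 1353 with UR. The ND arrays were far below both others, which overlapped. Tfr2 rose by 1.90 on the log2 scale with the HFD (standard error 0.11, adjusted p = 9.06e-08, a 3.74-fold increase) and stood 1.73 above the ND with UR, while the log2 fold change of UR against the HFD was -0.18 (95% interval -0.42 to 0.07, adjusted p = 0.360). In every alternative run the HFD call was kept, at 1.76 to 2.55. Probe 2 was not detected on any ND array and read 305, 277 and 286 with the HFD and 274, 271 and 303 with UR. That put it at least 1.30-fold higher with the HFD. It passed the filter only through the HFD and UR groups, where it was high. Its tests against the ND are therefore not taken as support for the rise on probe 1. Hamp and Hamp2 were not detected on any WAT array of any diet.

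Of 13 member probes in WAT, 3 rose and 1 fell with the HFD, against 38.1% of all kept probes called (17.4% higher and 20.7% lower). With UR against the HFD 0 of 13 passed limma's test, against 7.54% of all kept probes (3.41% higher and 4.13% lower). At an unadjusted p under 0.05 there were 4, namely Tfrc probe 2, Slc11a2 probes 1 and 2, and Slc40a1 probe 1; rank products called 0, array weights gave 1 and a fit of these groups alone gave 2. Against the ND, whose arrays serve both comparisons, UR gave 6 up and 2 down against 44.1% of all probes called (19.9% higher and 24.2% lower). The 6 rises were probes 1 and 2 of Tfr2, Tfrc and Slc11a2, so that each of these genes was counted more than once. Over the brightest probe of each gene there were 3 up and 2 down, against 2447 and 2654 over all genes. Diets did not overlap for 6, 5 and 9 of the 13 probes (HFD against ND, UR against HFD, UR against ND), against 48.1%, 33.8% and 52.5% of all kept probes. Tfr2 probe 2, kept only through the HFD and UR groups, is counted in both comparisons with the ND, among the rises and the probes without overlap. By rank products only Tfr2 probe 1 was called in WAT, with either diet against the ND.

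Transferrin mRNA fell in fat. Trf read 47840, 57904 and 56732 with the ND, 39765, 40190 and 44696 with the HFD, and 42836, 39383 and 40397 with UR, so that all ND arrays lay above all others. The log2 fold change was -0.38 with the HFD (standard error 0.07, adjusted p = 0.00127) and -0.02 with UR against the HFD (adjusted p = 0.885). Bmp6, near the detection limit, read 272, 371 and 262 with the ND, 249, 248 and 242 with the HFD, and 240, 216 and 248 with UR, where 2 of 3 arrays detected it. It stood below the ND by a log2 change of -0.35 with UR (adjusted p = 0.0173), or -0.29 without UR replicate 2 (adjusted p = 0.0813), and by -0.27 with the HFD (adjusted p = 0.0566).

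Hfe probe 2 read 1060, 825 and 959 with the ND and 1069, 1214 and 1096 with the HFD, just apart, and rose by 0.25 (adjusted p = 0.0434). That call was lost in 14 of 21 alternatives. Among single arrays it went without ND replicates 2 or 3, HFD replicates 1, 2 or 3, or UR replicates 1 or 2 (adjusted p = 0.0525 to 0.166). With UR the probe read 970, 930 and 1072. On probe 1 the log2 fold change with the HFD was 0.32 (adjusted p = 0.0547).

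The uptake genes were higher with UR than with the ND. The HFD means lay between, but by limma no probe passed for the HFD against the ND or for UR against the HFD. With the HFD against the ND, Tfrc probes 1 and 2 differed by 0.17 and 0.18 on the log2 scale (adjusted p = 0.165 and 0.0907). Slc11a2 probes 1 and 2 were close to the ND, at 0.08 and 0.01 (adjusted p = 0.503 and 0.886). Tfrc probe 2 read 804, 681 and 810 with the ND, 873, 916 and 804 with the HFD, and 1032, 983 and 976 with UR. UR lay above every other array, and against the ND the log2 fold change was 0.39 (standard error 0.08, adjusted p = 0.00135). On probe 1 it was 0.30 (adjusted p = 0.0153), a call lost without ND replicate 2 (0.0537) or UR replicate 1 (0.0621). Slc11a2 probe 1 read 629, 649 and 709 with the ND, 758, 727 and 617 with the HFD, and 780, 823 and 879 with UR, again highest with UR. It rose by 0.32 against the ND (adjusted p = 0.00722), and probe 2 by 0.17 (adjusted p = 0.0402), the latter lost in 14 of 21 alternatives, single arrays left out being ND replicates 1 and 3 and every HFD and UR replicate (adjusted p = 0.0527 to 0.136). Slc40a1 probe 1 and both probes of Fth1 passed no comparison in WAT. Ferroportin read 3538, 3876 and 3539 with the HFD and 3144, 3324 and 3209 with UR, which did not overlap, with a log2 fold change of -0.18 (adjusted p = 0.103).

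**Figure D3:**
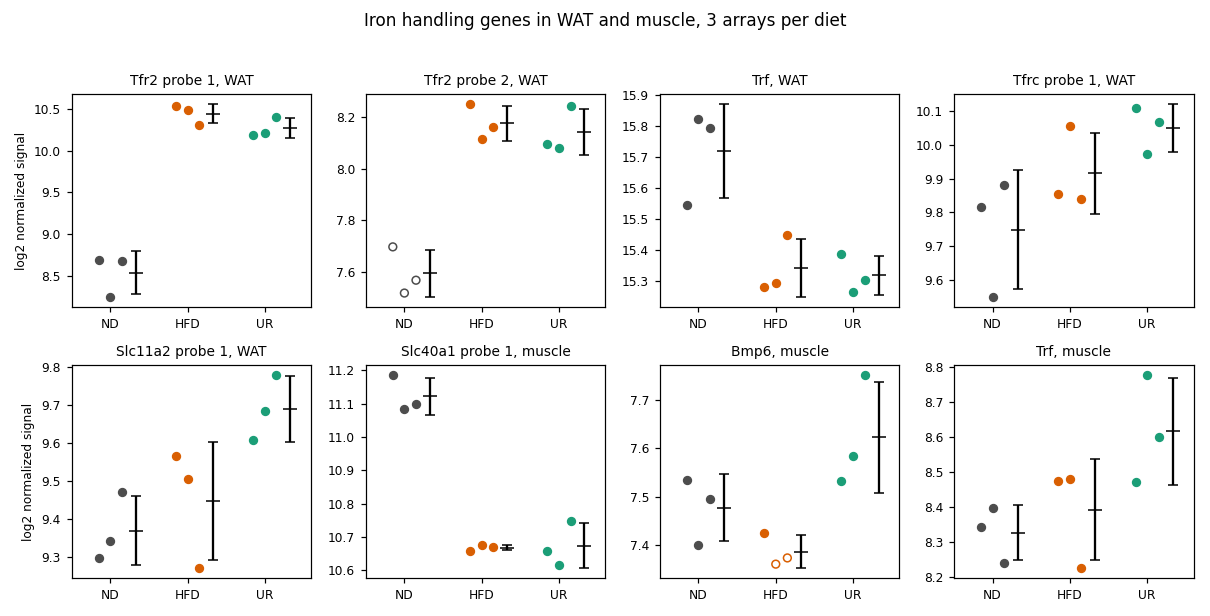
Log2 normalized signals of 5 member probes in WAT and 3 in muscle; points are arrays (open where the probe was not detected), and black marks give mean and SD of 3. In WAT, Tfr2 probe 1 read 303 to 414 with the ND and 1271 to 1479 with the HFD on the linear scale, and in muscle Slc40a1 probe 1 read 2170 to 2330 with the ND and 1617 to 1636 with the HFD.

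Of the related gene lists in WAT, that of haem scavenging and breakdown had every gene called with the HFD. Hepcidin regulation and iron sensing were called no more often than all genes, and with so few genes their shares are not told apart from it. Over all 10753 genes, each by its brightest kept probe, 42.1% were called with the HFD (20.2% higher and 21.9% lower) and 7.43% with UR against the HFD (3.5% higher and 3.93% lower). All 8 genes of haem scavenging and breakdown passed the test, 7 up and 1 down (median log2 change 0.42, against -0.02 over all genes). Hmox1, haem oxygenase, rose by 1.03, Hp, which encodes haptoglobin, by 0.76, Blvra, a biliverdin reductase, by 0.67 and Hpx, which encodes the haem carrier hemopexin, by 0.47. Of 6 haem synthesis genes, 0 rose and 4 fell, with Alad at -0.67. Of 13 iron-sulfur cluster genes, 1 rose and 7 fell, among them Cisd1 at -0.57, and of 15 hepcidin regulators 0 rose and 5 fell, among them Id1, a BMP target gene, at -0.80 and the BMP receptor Acvr1 at -0.50. Among 15 genes of other iron transport, 3 rose and 6 fell. The multicopper ferroxidase Cp fell by 0.99 and Flvcr2 by 0.96, while Flvcr1, a membrane carrier named as a haem exporter, rose by 0.71. Of 9 genes of sensing and storage 1 rose, Ftl1 by 0.45, and 2 fell, among them Aco1 by 0.42. With UR against the HFD these lists gave few calls: Hpx rose by 0.34, Bmpr1a fell by 0.25 and Fbxl5, which degrades an iron regulatory protein, fell by 0.34.

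Markers of other cell types moved in WAT as well. Of 10 macrophage markers 9 rose and 0 fell with the HFD (Mpeg1 by 1.88, Adgre1 by 1.73), and their summed signal was 21360 to 24359 for ND arrays, 51132 to 58430 for HFD arrays and 53153 to 62981 for UR arrays. Red cell markers gave 0 up and 4 down of 4 with the HFD and 2 up and 0 down with UR, with summed signals of 67103 to 72929, 37761 to 62644 and 65169 to 73413. Mesothelial markers gave 0 up and 5 down of 7 with the HFD and 0 up and 4 down with UR, and 7 adipocyte markers 1 up and 5 down with the HFD. Of the hepatocyte markers kept, Cyp2e1 fell by 1.51 with the HFD and Ass1 rose by 1.42, and Alb, Apoa1, Ttr, Cps1 and Serpina1a were not kept. The part of macrophages, red cells and mesothelium in the values of Tfr2, Trf, Tfrc and Slc11a2 was not tested.

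Muscle gave its clearest change in ferroportin. Slc40a1 probe 1 read 2330, 2170 and 2192 with the ND, 1617, 1636 and 1630 with the HFD, and 1618, 1569 and 1720 with UR. The ND arrays stood apart above both others, which overlapped. It fell by 0.45 on the log2 scale with the HFD (standard error 0.05, adjusted p = 0.000223, a 1.37-fold decrease), and UR against the HFD gave 0.01 (95% interval -0.11 to 0.12, adjusted p = 0.949). By limma the fall was called in every alternative run, at -0.63 to -0.42, except the threshold that also asks for a log2 fold change over 0.5. Of 11 member probes in muscle, 1 rose and 1 fell with the HFD, against 13% of all kept probes called (6.02% higher and 7.02% lower), 1 rose and 1 fell with UR against the HFD, against 22% (11.8% higher and 10.2% lower), and 1 rose and 1 fell with UR against the ND, against 15.6% (8.31% higher and 7.25% lower). Diets did not overlap for 2, 4 and 4 of the 11 probes in these comparisons, against 30.7%, 40.8% and 36.1% of all. Only Slc40a1 was called by rank products, in both comparisons with the ND.

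The other muscle calls were small. Hfe probe 2 read 239, 233 and 245 with the ND and 288, 279 and 259 with the HFD, and rose by 0.20 (adjusted p = 0.0344). The call was lost in 10 of 20 alternatives, including without ND replicates 1, 2 or 3 or HFD replicates 1 or 2 (adjusted p = 0.0519 to 0.118) and with median scaling (0.10, adjusted p = 0.359), and on probe 1 the log2 fold change was -0.03. Bmp6 read 186, 169 and 181 with the ND, 172, 164 and 166 with the HFD, where 1 of 3 arrays detected it, and 185, 192 and 215 with UR. It rose by 0.24 with UR against the HFD (adjusted p = 0.0178), or by 0.17 without UR replicate 3 (adjusted p = 0.0848). Slc11a2 probe 1 read 578, 562 and 511 with the HFD and 488, 494 and 479 with UR, and fell by 0.18 (adjusted p = 0.0474), a call lost in 15 of 21 alternatives, among them the omission of any array but HFD replicate 3 (adjusted p = 0.0529 to 0.161). For probe 2 it was 0.02.

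Trf in muscle read 324, 337 and 302 with the ND, 355, 357 and 299 with the HFD, and 355, 439 and 388 with UR. It rose by 0.29 with UR against the ND (adjusted p = 0.0332), and the call was lost without ND replicate 1 (0.0616), ND replicate 3 (0.111), UR replicate 2 (0.148) or UR replicate 3 (0.0722) and with median scaling (0.22, adjusted p = 0.0843). Both probes of Tfrc and of Fth1 passed no comparison, with Tfrc probe 1 at 1801, 1136 and 1986 with the ND, 1480, 1844 and 1457 with the HFD, and 1573, 1989 and 1796 with UR. Hamp and Tfr2 were not detected on any muscle array.

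Around these genes in muscle, Flvcr1 fell by 0.84 with the HFD (adjusted p = 0.000121) and rose by 0.31 with UR, and Hspa9, a mitochondrial chaperone of iron-sulfur cluster assembly, fell by 0.35 and rose by 0.26. Of the 9 genes of other iron transport, 0 rose and 1 fell with the HFD, and 2 rose and 0 fell with UR against the HFD. Of 14 iron-sulfur cluster genes, 2 rose and 1 fell, then 2 rose and 2 fell. Over all 9313 genes, each by its brightest kept probe, 14.4% were called with the HFD (7.1% higher and 7.33% lower), 22.1% with UR against the HFD (11.5% higher and 10.6% lower) and 16.5% with UR against the ND (9.07% higher and 7.4% lower). Of 16 hepcidin regulators, 2 rose and 2 fell with the HFD and 4 rose and 1 fell with UR, with Smad1 at -0.33 and then 0.31, Bmpr1a at 0.41 with UR and Erfe, the erythroferrone gene, at -0.46 with UR. Of 9 genes of sensing and storage, 0 rose and 1 fell with the HFD, and 4 rose and 0 fell with UR, Ftl1 by 0.35. Haem synthesis gave 1 up and 0 down of 7, then 0 up and 2 down. Macrophage markers gave 0 up and 1 down of 6 with the HFD, and 4 up and 0 down with UR, with a summed signal of 1597 to 1628, 1455 to 1550 and 1856 to 2264 with the ND, HFD and UR. The endothelial markers gave 1 up and 0 down of 10, then 3 up and 0 down, and those of the fibres 1 up and 1 down of 8, then 0 up and 1 down. Of 4 adipocyte markers kept in muscle, 0 were called with the HFD, 1 rose with UR against the HFD and 3 rose and 0 fell with UR against the ND (median log2 change 0.67), Lep by 1.21, Adipoq by 0.88 and Cidec by 0.47, with Plin1, Retn and Fabp4 not kept. Their summed signal was 912 to 1059 for ND arrays, 1117 to 1271 for HFD arrays and 1148 to 2090 for UR arrays. The part of these cells in the values of Bmp6, Trf and Slc40a1 was not tested.

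**Figure D4:**
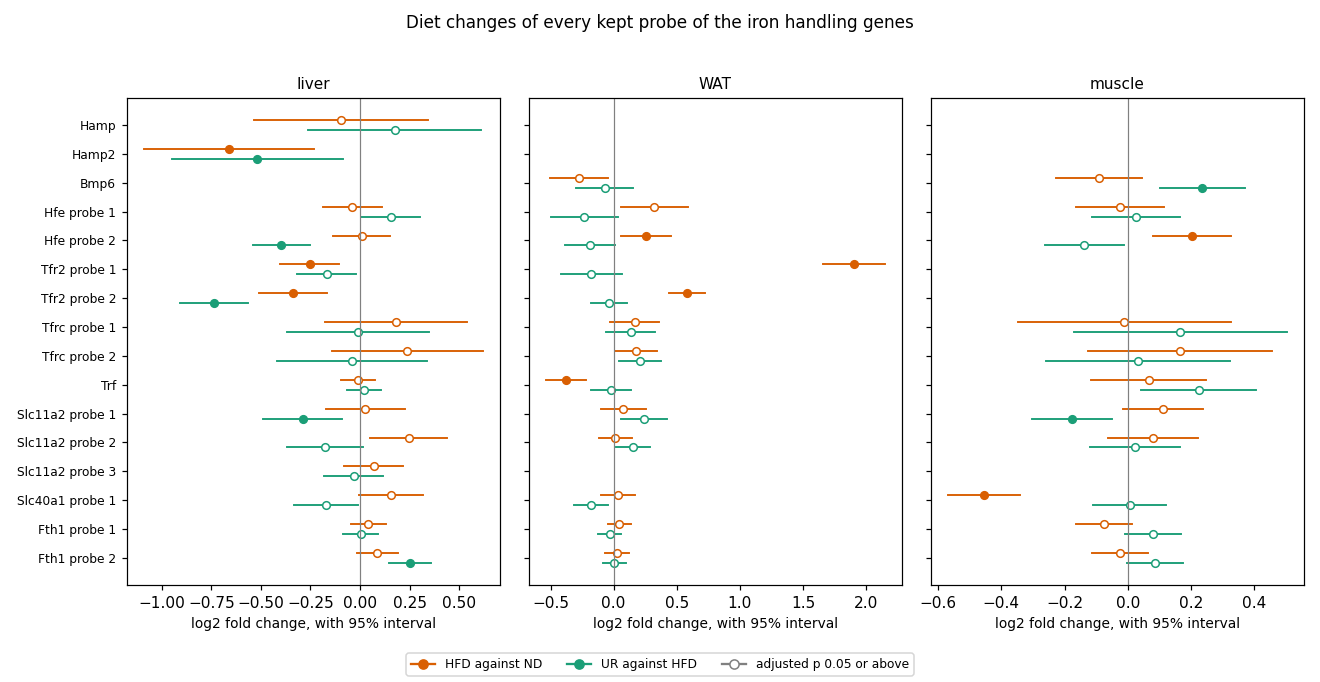
Log2 fold change (horizontal axis) with its 95% interval for every kept member probe in liver, WAT and muscle, HFD against ND in orange and UR against HFD in green, filled where the adjusted p was under 0.05; the panels have different horizontal scales. The largest value is that of Tfr2 probe 1 in WAT with the HFD (1.90), while in the liver Tfr2 probe 2 changed by -0.34 and -0.74.

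Whether the diets acted differently in the 3 tissues was tested for the 10 member probes kept in all of them, by a moderated F test in limma over the 27 arrays. The HFD effect differed for 3 of 10, against 46.3% of all 13683 such probes, and the UR effect for 3 of 10, against 58.6%. The fall of Slc40a1 with the HFD in muscle differed from the liver by 0.57 (standard error 0.09, adjusted p = 6.48e-05) and from WAT by 0.46 (adjusted p = 0.000357), the liver and WAT lying higher. For Trf, the HFD effect in WAT was lower than in muscle by 0.43 (adjusted p = 0.00281). The corresponding 0.35 from the liver (adjusted p = 0.0152) sets WAT against a probe at 97.4% to 100% of the brightest on the array, where a liver change may not be measured. With UR, Slc11a2 probe 1 had a lower effect in the liver than in WAT by 0.52 (adjusted p = 0.000502), and Fth1 probe 2 a higher one by 0.33 (adjusted p = 0.000122), although in WAT that probe was at 87.6% to 94.6% of the brightest. Tfr2, kept in the liver and WAT and not in muscle, did not enter this test, so the difference between its fall in the liver and its rise in WAT with the HFD was not tested.

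The genes whose pattern over the 9 arrays of a tissue was most like a member's are given as a description, since arrays of a tissue share diets and normalization. For Hamp in the liver the closest were Trappc10 (Pearson r = 0.91 over 9 arrays) and Pogz (0.87), among 14882 named probes. For Slc40a1 in the liver they were Lbp (0.92), which encodes the lipopolysaccharide binding protein, Pecam1 (0.92), an endothelial adhesion molecule, and Rgs1 (0.90). Tfrc came closest to Noc3l (0.90) in the liver, to Krt79 (0.95) and Sqle (0.95), the squalene epoxidase gene, in WAT, and to Alas1 (0.92) and Usp15 (0.92) in muscle. Slc40a1 in WAT came closest to Eif5 (0.96) and Bcl2l2 (0.95).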

How the data were processed

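Members and gene lists were chosen with earlier results of these data known, so their counts are descriptions. The authors deposited probe signals as intensities before any normalization (background subtraction: not given in the sources used here), with a detection p-value for each, which served here only to keep probes. A deposited table holds log2 values after quantile normalization and was an alternative in liver and WAT; its 9 muscle columns repeat those of WAT in all 45281 rows and were not used.

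Quantile normalization ran within each tissue (9 arrays), or over all 27 arrays for tissue comparisons, without background correction, followed by log2. limma 3.58.1 in R 4.3.3 (lmFit, eBayes with trend) gave two-sided p-values, adjusted by Benjamini-Hochberg over all kept probes; "rose" and "fell" mean an adjusted p under 0.05. Symbols came from the platform annotation (34885 of 45281 probes with 1 symbol, 18 with several, 10378 with none). Arrays of different tissues were treated as independent. The limma fits, F test and rank products were tested on simulated data. The text names every kept member probe and, per list, tissue and comparison, at most 4 called genes of smallest p. In 14 gene lists the brightest kept probe stood for a gene. List counts and list genes were not followed under the alternatives below.

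Alternatives changed the normalization, background correction, probe filter, probes counted, variance model, weights, arrays in the fit, replicate block, test (rank products, as the methods name, with 100 permutations) and threshold (unadjusted p under 0.05 and log2 fold change over 0.5), and left out each array. BeadChips are not named in the files used here, so no chip block was fitted. Within a tissue, same-numbered arrays of different diets did not clearly deviate together, so the numbers were not taken to pair them. Same-numbered arrays of different tissues were not compared, so a pairing of tissues is not excluded. The number of arrays limits the precision.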

Additional observations from a re-analysis of the deposited data

Results flagged for a closer look

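The effect of a diet differed among liver, WAT and muscle for 6 member probes, by limma's moderated F test over 27 arrays with adjustment over all 13683 probes kept in every tissue. Of the 10 member probes tested, 3 were called for the HFD effect and 3 for the UR effect. Over all 13683 probes 46.3% and 58.6% were called, so such differences were no more frequent among the members. The log2 fold changes given are those of the fit within each tissue. For the HFD against the ND these were Slc40a1 probe 1 (adjusted p = 2.91e-05; log2 fold change -0.45 in muscle, 0.16 in the liver and 0.03 in WAT), Trf (adjusted p = 0.00383; -0.38 in WAT, 0.07 in muscle and -0.01 in the liver, where the probe was at 97.4% to 100% of the brightest on the array and a change may not be measured) and Hfe probe 1 (adjusted p = 0.0392; 0.32 in WAT, -0.04 in the liver and -0.03 in muscle). The Hfe result was lost without liver ND replicate 3, liver HFD replicate 2, WAT ND replicate 2, WAT HFD replicates 1 or 2, muscle ND replicates 1 or 2, or muscle HFD replicate 2 (adjusted p = 0.0530 to 0.213).

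For UR against the HFD they were Fth1 probe 2 (adjusted p = 0.000163; liver 0.25, WAT 0.01, muscle 0.09), Slc11a2 probe 1 (adjusted p = 0.000866; liver -0.29, WAT 0.24, muscle -0.18) and Slc11a2 probe 2 (adjusted p = 0.0399; liver -0.18, WAT 0.15, muscle 0.02). The last was lost with median scaling (adjusted p = 0.282), with background correction by neqc (0.0578), and without liver HFD replicates 1 or 2, liver UR replicates 1, 2 or 3, WAT HFD replicates 1, 2 or 3, or WAT UR replicates 1 or 2 (0.0522 to 0.112).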

How the results depend on the processing

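Of 3596 single-probe alternatives, 3382 stayed on the same side of the threshold, 150 lost the call, 55 gained it and 9 turned the sign of a called value. Of 2976 signed values 97 turned sign, 88 of them called neither way (25 with arrays scaled to a common median) and those 9 called in 1 or both fits, all with median scaling. These were, on the log2 scale, in the liver with UR against the HFD Fth1 probe 1 (-0.13) and with UR against the ND Slc11a2 probe 1 (0.064), Trf (-0.21) and Fth1 probe 1 (-0.16), and with the ND liver against WAT Hfe probe 2 (-0.32) and Fth1 probe 1 (0.37) and WAT against muscle Slc40a1 probe 1 (0.13), Fth1 probe 1 (-0.21) and Fth1 probe 2 (-0.24). Median scaling also moved the balance of all calls. In the liver 2331 up and 2030 down with the HFD became 2406 and 1052, 3828 and 5829 with UR against the HFD became 6166 and 2189, and 4381 and 6152 with UR against the ND became 7420 and 2277. In WAT 664 and 803 with UR against the HFD became 849 and 496. In muscle 983 and 1146, 1934 and 1666, and 1358 and 1184 (HFD against ND, UR against HFD, UR against ND) became 112 and 3160, 1756 and 353, and 533 and 2592. It shifted the median of all liver probes from -0.07 to 0.10 (UR against HFD) and from -0.06 to 0.14 (UR against ND), and in muscle from 0.01 to -0.11 (HFD against ND).

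In the liver, the 3 calls with the HFD became 1 by rank products or with the unadjusted p and fold threshold. The 5 with UR against the HFD became 2 over the brightest probe of each gene, 8 with 2 groups in the fit, 1 by rank products and 2 with the threshold, and the 6 with UR against the ND became 3, 2 and 2 (brightest, rank products, threshold). In WAT the 4 with the HFD became 2, 1 and 2 in that order, the 8 with UR against the ND 5, 1 and 2, and the 0 with UR against the HFD 1 with array weights and 2 with 2 groups. In muscle, the 2 with the HFD became 1 with median scaling, no probe filter, the brightest probe, 2 groups or rank products and 0 with the threshold. The 2 with UR against the HFD became 1 with neqc, no filter or 2 groups and 0 by rank products or the threshold, and the 2 with UR against the ND 1 with median scaling or rank products and 0 with the threshold. The probes whose UR effect differed among tissues went from 3 to 5 with median scaling. Beyond what the construction of an alternative sets, the cause was not tested.

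Leaving out 1 array gave 1 to 4, 3 to 8 and 5 to 6 calls in the liver (HFD against ND, UR against HFD, UR against ND), 3 to 6, 0 and 6 to 8 in WAT, and 1 to 2, 0 to 2 and 1 to 2 in muscle. The liver counts of 1 and 8 came without ND replicate 1 and that of 3 without UR replicate 3. The muscle counts fell to 1 with the HFD without ND replicates 1, 2 or 3 or HFD replicates 1 or 2, to 1 with UR against the HFD without the same arrays or UR replicate 2 and to 0 without UR replicate 3, and to 1 with UR against the ND without ND replicates 1 or 3 or UR replicates 2 or 3. The ND tissue counts were 13 to 15, 14 to 15 and 9 to 10, and both counts of probes that differed among tissues 2 to 4. Within a tissue, same-numbered arrays of different diets correlated at -0.15 to 0.20 in their deviations from the group means. The numbers were therefore not taken to pair samples. Same-numbered arrays of different tissues were not compared in this way. With the replicate number as a block the calls were 3, 5 and 6 in the liver, 3, 0 and 7 in WAT and 2, 2 and 2 in muscle, 14, 15 and 10 between tissues, and 3 and 4 among tissues. Equal counts can hide other members. In muscle with UR against the HFD, 1 up and 1 down became 2 up and 0 down with the block and with median scaling. In the liver for that comparison, the block gained Tfr2 probe 1 and lost Hamp2. The probes of Bmp6, Slc11a2 probe 3 and, in fat, Tfr2 probe 2 lay near background, which limits their fold changes.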
